A study of Mus musculus with 8 samples.

Results

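Splicing factor genes were taken as the genes whose platform symbol begins with Srsf, Hnrnp, Sf3a, Sf3b, U2af, Prpf, Snrp, Celf, Mbnl or Rbfox. The rule found 74 genes among the 18193 genes with a probe set that names 1 gene, and they had 214 of the 45037 probe sets tested. A gene with several probe sets was read from the brightest, by its mean on the 8 arrays. Transcripts were measured on Affymetrix arrays, 1 per animal, in striatal tissue from 4 R6/2 and 4 wild-type mice, to ask which RNAs differ between the genotypes. All 8 were labelled as female, of a mixed C57Bl/6 and CBA strain, and 85 days or 12 weeks old. R6/2 mice carry a transgene with the first exon of human huntingtin and an expanded CAG repeat, driven by the human huntingtin promoter, and they keep both copies of the mouse gene. They model Huntington's disease with a short protein fragment and a rapid course, and the labels name no treatment. The labels give mouse numbers 42, 48, 54 and 63 for wild-type and 64, 65, 70 and 78 for R6/2 animals, and values are listed in this order. Of 5 wild-type animals in the study's description, 4 were analysed. Each array is a different animal, so the errors reflect variation among mice. Wild-type mouse 42 stood apart in its RNA controls, and the counts of called genes are given with and without it.

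Splicing removes introns from pre-mRNA in the spliceosome, which is built from small nuclear RNA-protein particles (snRNPs) and many further proteins. The U1 snRNP recognises the start of an intron, U2AF and the U2 snRNP recognise its end and branch point, and the U4, U5 and U6 particles join before catalysis. SR proteins and hnRNPs bind pre-mRNA and favour or repress nearby sites, and CELF, muscleblind and RBFOX proteins set tissue-specific choices, with several members abundant in neurons. In Huntington's disease, expanded CAG-repeat RNA has been reported to bind several splicing regulators, SRSF6 and muscleblind proteins among them.

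Of the 74 genes, 12 were higher and 3 lower in R6/2 striatum, and 59 did not pass the test (limma with Benjamini-Hochberg adjustment over all 18193 genes, adjusted p under 0.05). The higher genes were Snrpb, Srsf6, Prpf31, Srsf3, Hnrnph1, Hnrnpc, Hnrnph2, Hnrnpr, Sf3a1, Sf3b6, Sf3b3 and Sf3b4, and the lower genes were Celf1, Rbfox1 and Prpf40b. The changes were small, with folds of 1.21 to 1.53. Among all genes tested, 15.3% were called, 9.09% higher and 6.19% lower. Among the splicing factors, 20.3% were called, 16.2% higher and 4.05% lower. The median log2 difference, R6/2 minus wild-type, was 0.14 over the 74 genes and -0.0034 over all genes. Of the 74 differences 54 were positive, 73.0%, against 49.3% of all genes. The lowest R6/2 array lay above the highest wild-type array for 21 members, 28.4% of them, against 11.7% of all genes. The reverse held for 4 members, 5.41% of them, against 7.67% of all genes. Calls are more frequent among bright probe sets. Among the 4455 genes with a mean log2 intensity at or above 8.19, the lower quartile of the members' levels, 14.1% were called higher and 11.7% lower, with a median difference of 0.056. The 55 members in that range had 11 higher and 2 lower calls, 20.0% and 3.64%, with a median difference of 0.11. That brightness limit was chosen after the values had been seen.

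**Figure D1:**
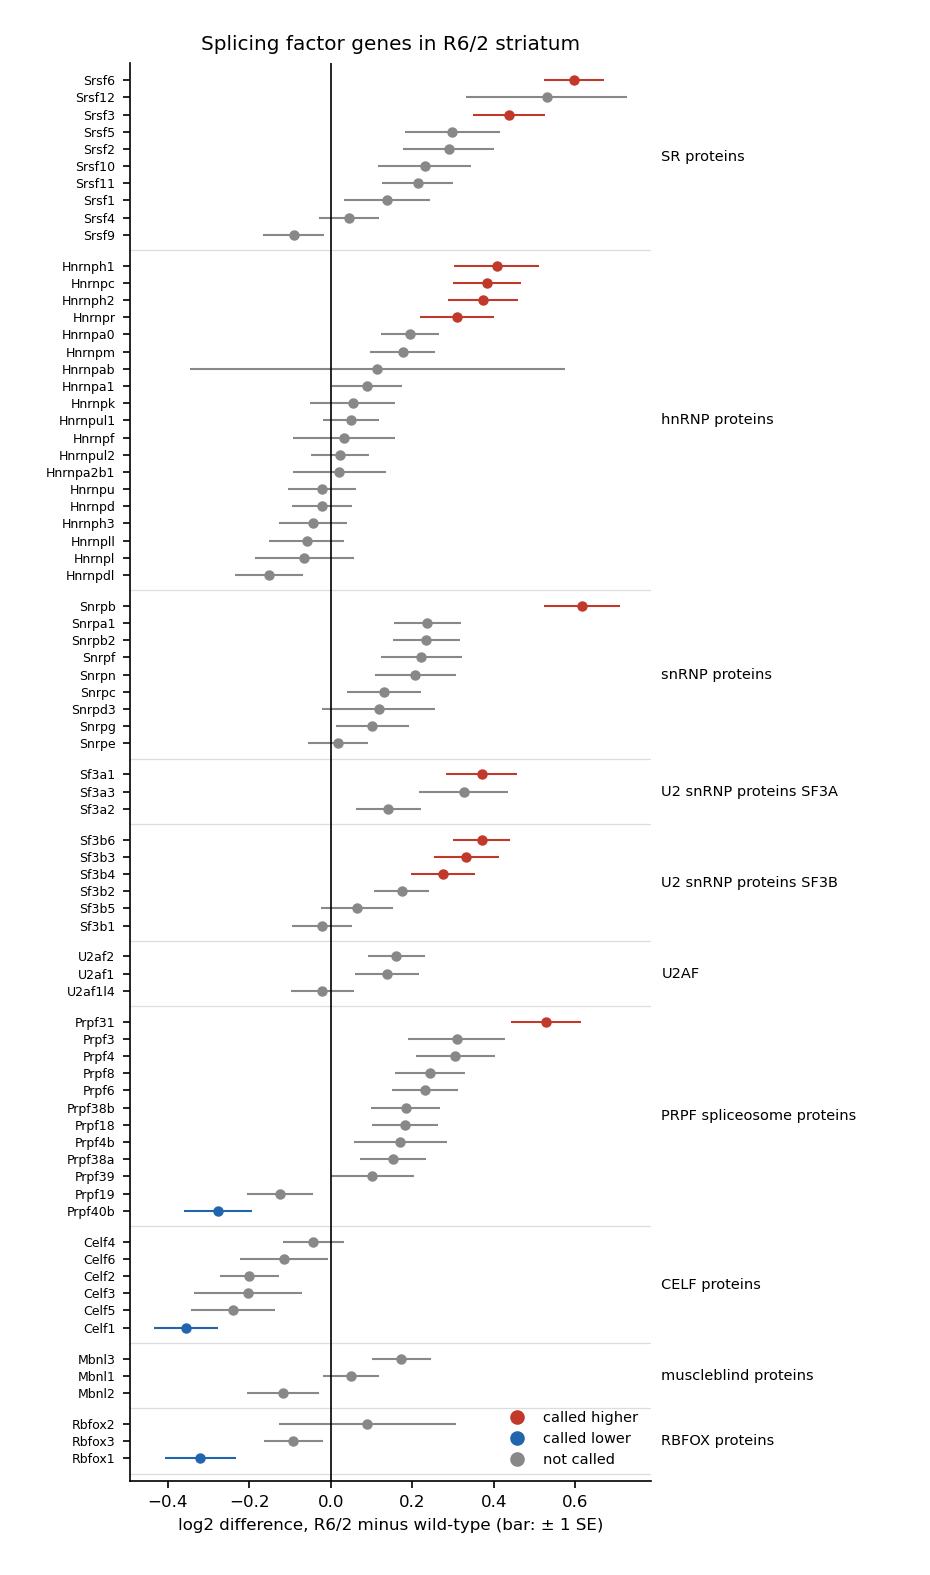
Log2 difference, R6/2 minus wild-type, for the 74 splicing factor genes by family, 1 point per gene with a bar of 1 SE on each side (4 mice per group). Called genes are in colour: 12 lie to the right of 0 and 3, Celf1, Rbfox1 and Prpf40b, to the left.

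The Gapdh RNA control and some cell type markers also differed between the groups. The Gapdh control, whose 3' signal exceeds its 5' signal more when RNA is broken or copied incompletely, had a 3' minus 5' difference of 1.19, 0.521, 0.498 and 0.414 on the wild-type arrays and 0.232, 0.343, 0.347 and 0.282 on the R6/2 arrays. The groups did not overlap, and wild-type mouse 42 stood apart, as it did for the Actb control at 2.40 against 1.37 to 1.58 on the other arrays. For Actb the groups overlapped, at 1.39 to 2.40 in wild-type and 1.37 to 1.46 in R6/2 mice. With the Gapdh difference as a covariate, a setting chosen after the data had been seen, 6 splicing factor genes were called higher and 1 lower. These shared only 5 calls with the 15, namely Snrpb, Prpf31, Srsf6, Sf3a1 and Sf3b6, and the others were Snrpa1 and, lower, Celf3. Celf1, Rbfox1 and Prpf40b then had limma adjusted p values of 0.0672, 0.159 and 0.266. Without mouse 42, 12 were called higher and 2 lower, and 11 of the 15 calls held, while Hnrnpr, Prpf40b, Rbfox1 and Sf3b4 had limma adjusted p values of 0.0510, 0.0958, 0.0655 and 0.0706. Snrpa1, Sf3a3 and, lower, Celf3 were called in its absence and not with all arrays, so that the snRNP and SF3A families had 2 genes higher each and the CELF family 2 lower. The other splicing list without it had 33 higher and 2 lower. Of 8 medium spiny neuron markers, 7 were lower in R6/2 mice, and their mean level was 10.96 to 11.29 in wild-type and 10.24 to 10.31 in R6/2 mice. Of 11 cortical projection neuron markers 3 were lower, with overlapping means of 6.03 to 7.13 and 5.54 to 6.56. With the cortical mean as a covariate, 4 splicing factor genes, Snrpb, Prpf31, Srsf6 and Sf3b6, were called higher and 0 lower. Among all genes, 4.28% were called higher and 2.69% lower in that fit. The shares of all genes were 5.32% and 3.53% with the Gapdh covariate, and 8.68% and 5.31% without mouse 42. The median SE over all genes was 0.093 as reported, 0.112 with the Gapdh covariate and 0.123 with the cortical one. Lower calls were also made for 1 of 7 oligodendrocyte, 2 of 6 astrocyte and 2 of 4 endothelial markers, and for 0 of 7 microglial markers. Of 7 ependymal and choroid plexus markers, Enkur was higher, by 0.85, and Ccdc153 lower, with a median difference of 0.26 over the list and mean levels of 6.29 to 7.54 in wild-type and 6.26 to 7.77 in R6/2 mice. In whole striatum, fewer cells of a type and less RNA per cell cannot be told apart. The medium spiny neuron and Gapdh control values moved with the genotype, while the Actb control did not separate the groups. Celf1, Rbfox1 and Prpf40b fell and the other 12 called genes rose alongside them. No fit used the medium spiny neuron markers as a covariate, and their part in those changes was not tested. For the RNA control values, nothing beyond the Gapdh fit and the fit without mouse 42 was tested.

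**Figure D2:**
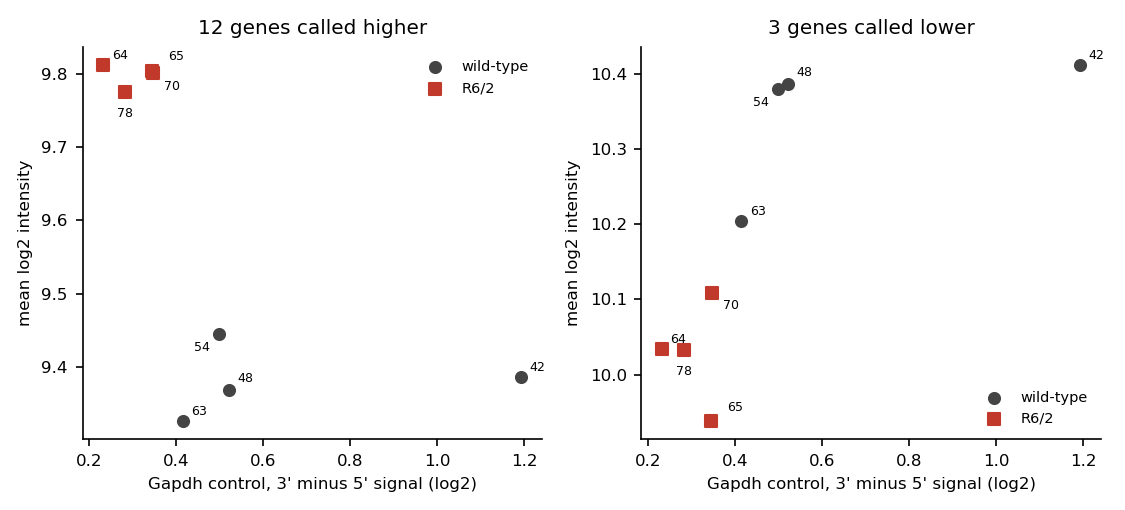
Mean log2 intensity of the called splicing factor genes on each array against the Gapdh 3' minus 5' signal difference in log2 units, with the mouse numbers, for the 12 genes called higher and the 3 called lower. Wild-type mouse 42 stands at 1.19 and the other 7 mice between 0.232 and 0.521.

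The stretches before the annotated starts of Srsf6, Prpf31, Celf1 and Rbfox1 show how differently these promoters are built, in genes that rose and genes that fell. Snrpb, the gene with the largest rise, had no promoter window and is not shown. They are the 250 bases upstream of a RefSeq start in GRCm38.p6, at chr2:162931258-162931507 for Srsf6, chr7:3629735-3629984 for Prpf31, chr2:90940147-90940396 for Celf1 and chr16:5884543-5884792 for Rbfox1. All are on the plus strand, and capitals mark GGGCGG or its reverse complement CCGCCC, the GC box bound by Sp1.
Srsf6: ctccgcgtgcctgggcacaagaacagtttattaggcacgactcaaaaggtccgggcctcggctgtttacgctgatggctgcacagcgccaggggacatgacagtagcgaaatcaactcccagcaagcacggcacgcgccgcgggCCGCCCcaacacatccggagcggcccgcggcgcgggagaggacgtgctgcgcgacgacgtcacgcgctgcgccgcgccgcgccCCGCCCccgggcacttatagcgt
Prpf31: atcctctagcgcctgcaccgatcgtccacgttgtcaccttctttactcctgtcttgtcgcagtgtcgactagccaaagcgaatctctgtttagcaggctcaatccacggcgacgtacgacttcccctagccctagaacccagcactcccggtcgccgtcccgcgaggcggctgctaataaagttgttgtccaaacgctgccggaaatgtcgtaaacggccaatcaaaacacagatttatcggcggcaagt
Celf1: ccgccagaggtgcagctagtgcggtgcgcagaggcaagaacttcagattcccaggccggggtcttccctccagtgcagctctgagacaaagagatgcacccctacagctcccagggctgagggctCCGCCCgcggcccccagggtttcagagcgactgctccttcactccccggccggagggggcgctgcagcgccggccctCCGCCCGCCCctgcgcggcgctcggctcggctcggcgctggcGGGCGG
Rbfox1: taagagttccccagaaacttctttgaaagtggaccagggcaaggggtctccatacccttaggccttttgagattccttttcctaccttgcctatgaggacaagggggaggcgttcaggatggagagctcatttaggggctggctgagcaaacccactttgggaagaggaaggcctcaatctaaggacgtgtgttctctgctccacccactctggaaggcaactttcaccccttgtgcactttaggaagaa
The Srsf6 stretch has 35 CpG dinucleotides and 2 GC boxes, Celf1 has 24 and 4, Prpf31 has 23 and 0, and Rbfox1 has 2 and 0. The GC boxes of Celf1 partly overlap each other. Srsf6, which rose, and Celf1, which fell, both have CpG-rich starts with GC boxes. Rbfox1 has a second annotated start, with 6 CpG and 0 GC boxes upstream.

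The RefSeq promoter table, with windows from 250 bases before to 50 after each start, held 102 windows for 65 of the 74 genes. Of these genes, 47 had 1 window, and a gene with several starts counted once for each. The windows of all genes came from 27025 genes, whether or not they were tested here. Their median CpG count was 23.5, against 7 over all 32851 windows. GGGCGG was found on either strand in 57.8% of the splicing factor windows and in 35.7% of all windows, and CCGGAAG, the core bound by ETS factors, in 23.5% and 8.86%. CCAAT was found in 46.1% and 37.4%, TATAAA in 9.80% and 13.6%, TGACGTCA in 4.90% and 1.79%, and AAGATGG in 6.86% and 6.34%. Each motif was searched on both strands, none contains another, and a window could hold several. Of 15 windows of genes that rose, 11 had GGGCGG, of 5 windows of genes that fell, 2 had it, and of 82 windows of genes not called, 46. In the same order the counts were 3, 0 and 21 for CCGGAAG, 9, 2 and 36 for CCAAT, and 2, 0 and 8 for TATAAA. They were 0, 0 and 5 for TGACGTCA and 1, 0 and 6 for AAGATGG. A match is a string of letters and does not show binding.

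SR proteins bind enhancer sequences in exons and draw the spliceosome to them, and 2 of 10 members rose and none fell, with a median difference of 0.26 and 9 positive signs. For this and each later family, the background is 9.09% of all genes called higher, 6.19% lower and 49.3% with a positive sign. The families are small, so a single call moves their shares widely. Srsf6 favours exon inclusion and has been reported to bind the expanded CAG repeat of huntingtin RNA. Its log2 intensity was 9.52, 9.73, 9.67 and 9.53 in wild-type mice 42, 48, 54 and 63, and 10.25, 10.23, 10.21 and 10.15 in R6/2 mice 64, 65, 70 and 78. The groups did not overlap, and the rise was 0.60 ± 0.074 (SE, n = 4 per group), 1.51-fold, at a limma adjusted p of 0.00079. All 4 probe sets of Srsf6 had positive differences, and the other 3 gave 0.33, 0.34 and 0.28, with a mean over all 4 of 0.39 (limma adjusted p = 0.00864). Srsf3, an SR protein that also takes part in mRNA export, was 9.17, 9.10, 9.42 and 9.36 in wild-type and 9.71, 9.81, 9.64 and 9.64 in R6/2 mice. Every R6/2 value was above every wild-type value, with a rise of 0.44 ± 0.088 (limma adjusted p = 0.00907). All 6 Srsf3 probe sets were positive, from 0.26 to 0.46, and 3 of them were called.

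The other 8 SR genes did not pass by their brightest probe set, with differences from -0.091 for Srsf9 to 0.53 ± 0.20 for Srsf12 (limma adjusted p = 0.0988), whose groups touched at 6.74. Srsf5, Srsf2 and Srsf11 had no overlap between groups, with differences of 0.30, 0.29 and 0.21. In Srsf5 and Srsf2 wild-type mouse 42 was the lowest array, at 10.82 and 9.91. Srsf10, which represses splicing when it is dephosphorylated, was not called by its brightest probe set (0.23), but its other 3 probe sets were called in the fit over all probe sets. The largest of them, 1449121_at, was 6.24, 6.29, 6.33 and 6.32 in wild-type and 6.99, 6.95, 6.84 and 6.91 in R6/2 mice, a rise of 0.63 ± 0.067 (limma adjusted p = 0.000733 over 45037 probe sets). These groups lay far apart relative to their spread. Srsf2, a protein of nuclear speckles, had 1 of 4 probe sets called, with a difference of 0.45. The 3 with positive differences all end in _s_at, a class of probe set that can detect related transcripts. The remaining one, 1427816_at, differed by -0.016.

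The snRNP proteins form the core and particle-specific parts of the U snRNPs, and 1 of 9 members rose and none fell, with a median difference of 0.21 and 9 positive signs, or 7 with the mean of all probe sets. The share called higher, 11.1%, lay near the 9.09% of all genes. Snrpb encodes the Sm protein B, part of the ring that holds each spliceosomal snRNA. It was 9.53, 9.26, 9.29 and 9.13 in wild-type and 10.01, 9.92, 9.94 and 9.81 in R6/2 mice. The groups did not overlap, and the rise of 0.62 ± 0.093, 1.53-fold, was the largest among the 74 genes (limma adjusted p = 0.00218). Its identifier ends in _s_at, a class of probe set that can detect related transcripts, and a second probe set rose by 0.50. Snrpn, its neuronal relative and an imprinted gene, was 6.95, 6.78, 7.04 and 6.81 against 7.24, 6.85, 7.19 and 7.12. The groups overlapped, and its difference of 0.21 ± 0.10 did not pass (limma adjusted p = 0.196). Snrpa1 and Snrpb2, both of the U2 snRNP, had differences of 0.24 and 0.23, and the Sm proteins Snrpe and Snrpg had 0.017 and 0.10.

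SF3A and SF3B are the complexes of the U2 snRNP that hold it on the branch point. In SF3A, 1 of 3 members rose, with a median difference of 0.33. In SF3B, 3 of 6 members rose, with a median difference of 0.22. Sf3a1, whose product also contacts the U1 snRNP, was 7.99, 7.995, 7.96 and 7.77 in wild-type and 8.20, 8.18, 8.37 and 8.45 in R6/2 mice. The groups were separate, by 0.37 ± 0.087 (limma adjusted p = 0.018). Sf3b6, the subunit that touches the branch-point adenosine, was 9.58, 9.52, 9.57 and 9.64 against 10.02, 9.95, 9.97 and 9.85. Its rise was 0.37 ± 0.069 (limma adjusted p = 0.00619), with little spread within either group. Sf3b3, a scaffold subunit, was 8.84, 8.77, 8.91 and 8.66 against 9.16, 9.004, 9.20 and 9.16, a rise of 0.33 ± 0.080 (limma adjusted p = 0.0198). Sf3b4, an RNA-binding subunit, was 9.21, 9.30, 9.29 and 9.15 against 9.63, 9.38, 9.58 and 9.46, a rise of 0.27 ± 0.079 (limma adjusted p = 0.0405). Neither gene's groups overlapped. Sf3b1, the large subunit that clasps the branch helix and is mutated in blood cancers, had a difference of -0.022 ± 0.073 (limma adjusted p = 0.874), and Sf3b2 had 0.17 with separate groups. Sf3a3 did not pass by its brightest probe set, at 0.33 ± 0.11, and its other probe set was called at 0.54. For Sf3a1, Sf3b3, Sf3b4 and Sf3b6 no other probe set was called. With the mean of all probe sets of each gene, Sf3a1 was 0.082 (limma adjusted p = 0.544), and none of the 6 SF3B members was called, with Sf3b6 at 0.19, Sf3b3 at 0.21 and Sf3b4 at 0.14 (limma adjusted p = 0.0598, 0.183 and 0.176).

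U2AF reads the polypyrimidine tract and the end of the intron, and none of its 3 members was called by limma, while 1 had an unadjusted p under 0.05. U2af2, the subunit that binds the tract, was 9.71, 9.88, 9.88 and 9.78 in wild-type and 9.98, 9.91, 10.02 and 9.97 in R6/2 mice. The groups were separate, and the difference of 0.16 ± 0.070 missed the threshold (limma adjusted p = 0.154). U2af1, which reads the final bases of the intron, differed by 0.14 (limma adjusted p = 0.273), with overlapping groups.

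The PRPF genes encode proteins of the tri-snRNP, of the catalytic core and of the early U1 complex, and 1 of 12 members rose and 1 fell, with a median difference of 0.18 and 10 positive signs. At 8.33% in each direction, the called shares lay near the 9.09% higher and 6.19% lower of all genes. Prpf31 holds the U4 and U6 snRNPs to U5, and its human gene is mutated in retinitis pigmentosa. It was 8.14, 7.94, 7.87 and 7.87 in wild-type and 8.58, 8.44, 8.36 and 8.55 in R6/2 mice. The rise was 0.53 ± 0.086, 1.44-fold (limma adjusted p = 0.00316), with no overlap, but a second, dimmer probe set of Prpf31 differed by -0.026 ± 0.090 (limma adjusted p = 0.894), and the mean of both was 0.25 (limma adjusted p = 0.0463). Prpf40b, a U1-associated protein whose human form was found as a huntingtin-binding protein, was 8.01, 7.86, 7.81 and 7.81 in wild-type and 7.49, 7.49, 7.71 and 7.69 in R6/2 mice. It fell by 0.28 ± 0.083 (limma adjusted p = 0.0482), with no overlap and a p close to the threshold. Prpf3, Prpf4, Prpf6 and Prpf8, all tri-snRNP proteins, had differences of 0.31, 0.31, 0.23 and 0.24 and did not pass. Prpf4b, a kinase of tri-snRNP proteins, was not called by its brightest probe set (0.17), while 3 of its 6 probe sets were called, with differences of 0.30, 0.59 and 0.59.

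The hnRNPs coat nascent RNA and often repress the sites they cover, and 4 of 19 members rose and none fell, with a median difference of 0.050. With the Gapdh or the cortical covariate none of the 19 was called, although the Hnrnpc difference was 0.38 and 0.43 in those fits (limma adjusted p = 0.0601 and 0.0529) and that of Hnrnpr 0.37 and 0.21. Hnrnph1, which binds runs of guanine, was 10.47, 10.73, 10.83 and 10.80 in wild-type and 10.93, 11.31, 11.09 and 11.13 in R6/2 mice. The groups were separate by a narrow gap, and the rise was 0.41 ± 0.10 (limma adjusted p = 0.0261). Hnrnph2, its X-linked relative, was 9.69, 9.81, 9.89 and 9.77 against 10.12, 10.36, 10.06 and 10.11, a rise of 0.37 ± 0.085 (limma adjusted p = 0.0157). Hnrnpc, which binds uridine tracts, was 10.42, 10.30, 10.49 and 10.45 against 10.86, 10.63, 10.92 and 10.79, a rise of 0.38 ± 0.082 (limma adjusted p = 0.012). Every R6/2 value of both genes was above every wild-type value. Hnrnpr, which also acts in axonal mRNA transport, was 10.06, 9.97, 10.14 and 9.79 against 10.28, 10.43, 10.28 and 10.21, a rise of 0.31 ± 0.090 (limma adjusted p = 0.042). The other probe sets of Hnrnph1, Hnrnpc and Hnrnpr were not called, and Hnrnph2 had 1 probe set. Those not called differed by -0.079 for Hnrnph1, by -0.032 and 0.23 for Hnrnpc, and by -0.078 to 0.30 for Hnrnpr. With the mean of all probe sets, Hnrnph1, Hnrnpc and Hnrnpr were 0.16, 0.20 and 0.16 and lost their calls (limma adjusted p = 0.338, 0.0608 and 0.191). Hnrnpa2b1, a carrier of dendritic mRNAs, differed by 0.021 ± 0.11 (limma adjusted p = 0.928) with a 95% interval of -0.23 to 0.27, and its sign changed with the processing. Hnrnpab and Hnrnpk were not called by their brightest probe sets and had 1 other probe set each that was called, at 0.56 and 0.28.

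The CELF proteins bind uridine- and guanine-rich RNA in the nucleus and cytoplasm, and several are most abundant in brain. Of 6 members, 1 fell and none rose. All 6 differences were negative, with a median of -0.20, also under quantile normalization and median centring, while 2 were positive with the Gapdh covariate. Celf1 was 11.49, 11.57, 11.58 and 11.32 in wild-type and 11.14, 11.08, 11.21 and 11.10 in R6/2 mice. The groups did not overlap, and the fall was -0.36 ± 0.078, 1.28-fold lower (limma adjusted p = 0.0132). Of its 5 probe sets, 3 were called lower, at -0.36, -0.34 and -0.39, and the 2 dimmest were not called, at 0.15 and -0.050. With the mean of all 5 probe sets the adjusted p was 0.196. Celf2 was 11.44, 11.54, 11.56 and 11.40 against 11.30, 11.20, 11.37 and 11.28 by its brightest probe set. These groups were separate, but the difference of -0.20 ± 0.073 did not pass (limma adjusted p = 0.0917).

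The 7 probe sets of Celf2 did not move together. Probe set 1444152_at was 8.16, 7.87, 8.03 and 8.16 in wild-type and 6.82, 6.89, 7.17 and 7.17 in R6/2 mice, a fall of -1.04 ± 0.11 (limma adjusted p = 0.000605 over 45037 probe sets). It was the largest change among the 214 probe sets. Probe set 1439777_at fell by 0.44 (limma adjusted p = 0.00744). Probe set 1451154_a_at was 9.29, 9.17, 9.11 and 9.29 against 9.42, 9.79, 9.56 and 9.46, a rise of 0.34 ± 0.094 (limma adjusted p = 0.0471). Both groups were separate in each of these probe sets, so the same gene name covers calls in opposite directions. The transcripts that each probe set detects were not examined here.

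**Figure D3:**
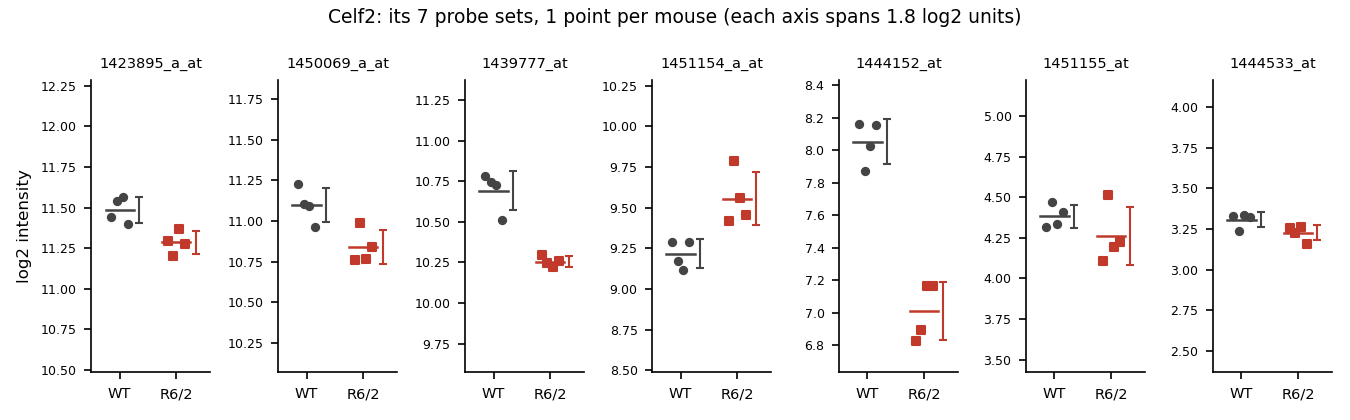
Log2 intensity of the 7 Celf2 probe sets, 1 point per mouse (WT, wild-type, and R6/2, 4 mice each), with the mean as a line and the SD as a bar beside it; each vertical axis spans the same number of log2 units. Probe sets 1439777_at and 1444152_at lie lower in R6/2 mice and 1451154_a_at lies higher, with no overlap.

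RBFOX proteins bind intronic elements near neuronal exons, and 1 of 3 members fell and none rose. Rbfox1 was 11.74, 11.73, 11.74 and 11.48 in wild-type and 11.47, 11.24, 11.41 and 11.30 in R6/2 mice. The groups were separate by a narrow gap, since wild-type mouse 63 was below the other wild-type mice, and the fall was -0.32 ± 0.087, 1.25-fold lower (limma adjusted p = 0.0326). All 4 Rbfox1 probe sets had negative differences, from -0.18 to -0.44. Rbfox3, the neuronal nuclear antigen NeuN, was 11.87, 12.01, 12.03 and 11.82 against 11.83, 11.86, 11.86 and 11.81 by its brightest probe set, and the difference of -0.091 ± 0.073 did not pass (limma adjusted p = 0.448). Its other 2 probe sets were both called lower, by -0.44 and -0.44. One of them, 1456149_at, was 9.72, 9.52, 9.48 and 9.35 in wild-type and 9.16, 9.03, 9.02 and 9.11 in R6/2 mice. Rbfox2, which is expressed more widely, was 6.59, 7.44, 7.75 and 7.54 against 7.70, 7.34, 7.16 and 7.49, a difference of 0.090 ± 0.22 whose sign changed with the processing.

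Muscleblind proteins are sequestered on expanded CUG repeats in myotonic dystrophy, and none of the 3 members was called by limma, while 1, Mbnl3, had an unadjusted p under 0.05. Mbnl1 was 10.25, 10.18, 10.29 and 10.17 in wild-type and 10.35, 10.24, 10.21 and 10.29 in R6/2 mice. The groups overlapped, and the difference of 0.051 ± 0.069 (limma adjusted p = 0.673) had a 95% interval of -0.10 to 0.20. Mbnl2, the main muscleblind protein of the brain, was 10.96, 11.001, 11.14 and 10.82 against 10.81, 10.95, 10.74 and 10.95, a difference of -0.12 ± 0.088 (limma adjusted p = 0.414). Mbnl3 lay between 3.20 and 3.57, inside the range of 2.77 to 3.67 of the 9 Y-linked probe sets in these female mice, so its level cannot be told from background.

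**Figure D4:**
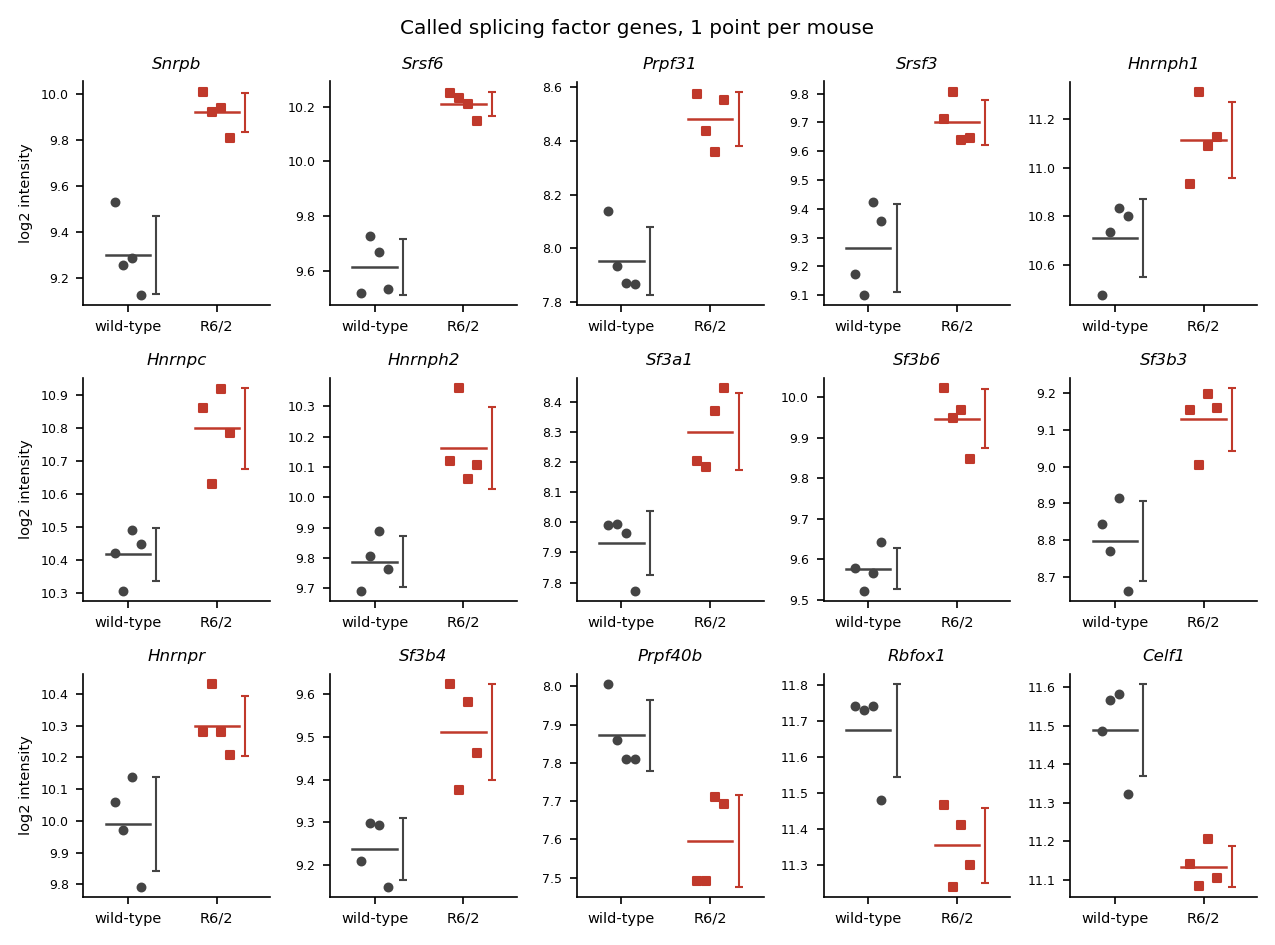
Log2 intensity of the 15 called splicing factor genes, 1 point per mouse (4 wild-type and 4 R6/2 mice), with mean and SD. In each gene the groups do not overlap; Srsf6 goes from a mean of 9.61 to 10.21 and Celf1 from 11.49 to 11.13.

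Leaving out 1 array at a time kept the calls of 8 genes throughout, namely Snrpb, Srsf6, Prpf31, Srsf3, Hnrnpc, Hnrnph2, Sf3b6 and Celf1. Sf3a1 lost its call without R6/2 mouse 70 or 78, with limma adjusted p values of 0.0524 to 0.0569. Hnrnph1 lost it without mouse 48, 65, 70 or 78 (limma adjusted p = 0.0602 to 0.0618), and Sf3b3 without mouse 48, 64, 70 or 78 (limma adjusted p = 0.0518 to 0.0623). Rbfox1 kept it only without mouse 63 or 64, and otherwise reached limma adjusted p values of 0.0626 to 0.0891. Hnrnpr kept it only without mouse 54 (otherwise limma adjusted p = 0.0510 to 0.0989), and Sf3b4 only without mouse 65 (otherwise limma adjusted p = 0.0594 to 0.110). Prpf40b lost it without any 1 of the 8 arrays, at limma adjusted p values of 0.0595 to 0.124. Directions did not change in any of these fits.

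The 59 genes not called had differences from -0.24 for Celf5 to 0.53 for Srsf12. For 57 of them the 95% interval of the brightest probe set lay within a 1.5-fold change in either direction, and Hnrnpab and Srsf12 were the exceptions. This does not cover their other probe sets. Called ones of Celf2, Srsf10 and Prpf4b had log2 differences beyond 1.5-fold, at -1.04, 0.63 and 0.59. An unadjusted p under 0.05 was reached by 20 of the 59, 33.9%, against 16.9% of all genes not called. In the fit over all 45037 probe sets, 10.1% of all probe sets were called in either direction. Among the 214 of the splicing factors 25 were higher and 9 lower. The share of all probe sets was not split by direction, so it gives no background for this split. In that fit, with its larger number of tests, the probe sets used for Sf3b4, Hnrnpr and Prpf40b were not called (limma adjusted p = 0.0547, 0.0573 and 0.0650). Of the 140 probe sets that were not the brightest of their gene, 73 matched the brightest in sign and call, 29 in sign only, and 38 had the opposite sign. In 3 of those the opposite difference had an unadjusted p under 0.05, in Celf2, in Hnrnpll at 0.21 and in Snrpc at -0.21, the last at a dim level of 3.57. In 8 genes not called by the brightest probe set another was called, namely Celf2, Hnrnpab, Hnrnpk, Prpf4b, Rbfox3, Sf3a3, Srsf10 and Srsf2. The same count was not made over all genes, so these 8 have no background here. The 74 genes had 214 probe sets, against 34945 for all 18193 genes, which gives them more chances of a further call.

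**Figure D5:**
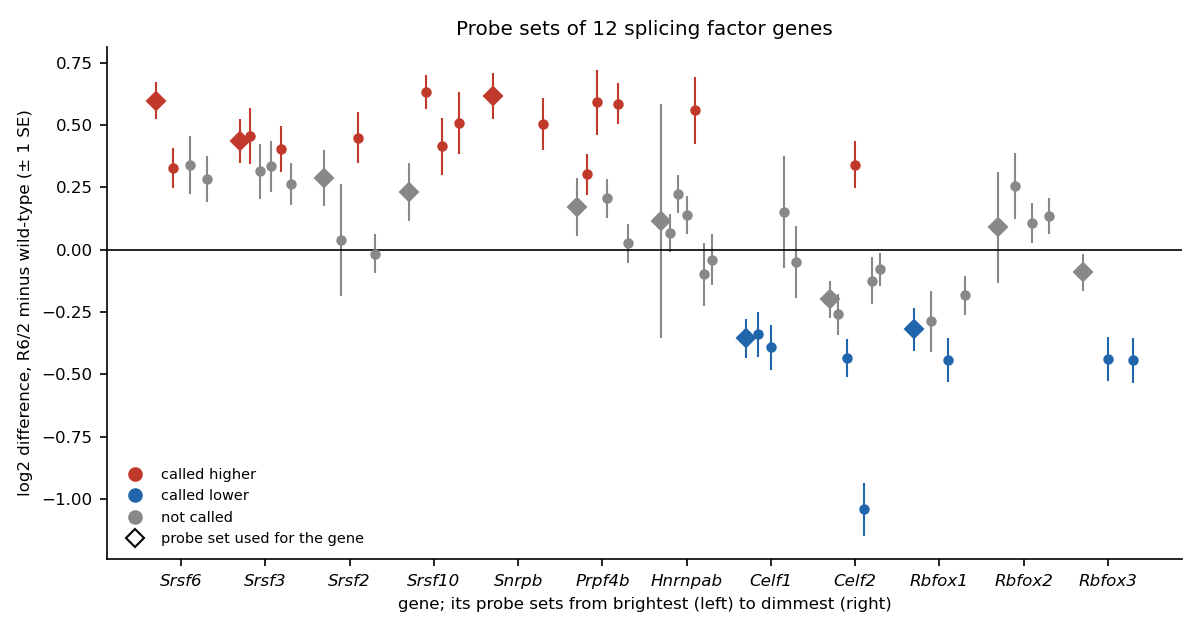
Log2 difference, R6/2 minus wild-type, with bars of 1 SE, of the probe sets of 12 splicing factor genes (4 mice per group), ordered from brightest to dimmest within a gene; diamonds mark the probe set used for the gene and colours the calls. Celf2 spreads from -1.04 to 0.34, while Srsf3 and Srsf6 lie to one side of 0.

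Other spliceosome and splicing regulator genes outside the name rule were followed in a list of 146 genes, 132 of which had a probe set that names 1 gene. Of these, 28 were called higher, 21.2%, and 0 lower (limma), against 9.09% and 6.19% of all genes. At an unadjusted p under 0.05, 52 were higher and 7 lower, 39.4% and 5.3%, against 17.3% and 12.3% of all genes, and up to 3 lower calls appeared under other settings. Their median difference was 0.12, and 96 of 132 differences were positive. The list's mean level was 8.25 to 8.34 in wild-type and 8.36 to 8.45 in R6/2 mice. All genes had mean levels of 6.32 to 6.39 on the 8 arrays. Among the 4455 genes at or above 8.19, 14.1% were called higher and 11.7% lower. The list was not cut at that level, so these shares are not matched to it, and the 4 genes named next lay below it. Taf15, a FET-family RNA-binding protein, rose by 1.06 ± 0.18 (limma adjusted p = 0.00389), and Gemin7, of the complex that loads Sm proteins onto snRNA, by 0.65 ± 0.10 (limma adjusted p = 0.00286). Nova1, a neuronal splicing regulator, rose by 0.62 ± 0.081 (limma adjusted p = 0.00107), and Crnkl1, a spliceosome core protein, by 0.56 ± 0.083 (limma adjusted p = 0.0021). The groups of all 4 genes did not overlap.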

How the data were processed

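Total RNA from the striatum of 8 mice was hybridised to 1 Affymetrix array each. The deposited values are log2 intensities per probe set, which the authors made with RMA in affy (no versions named), per the submitters' processing notes. RMA corrects background, normalizes arrays jointly and summarises probes, and the set of arrays that went through it jointly is not named in the labels. Values ran from 2.57 to 14.49. The table had 45101 probe sets, of which 64 controls were left out. The platform annotation gave 34945 probe sets 1 gene symbol, 932 several and 9160 none, and only the first were used, the brightest per gene over all arrays. All 74 member symbols matched RefSeq genes. 18 probe sets naming several genes include a splicing factor symbol, and 5 such symbols occur on these alone.

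Groups were compared with limma 3.58.1 in R 4.3.3 (lmFit and eBayes in 1 model of all 8 arrays), with Benjamini-Hochberg adjustment over all genes, or over all probe sets where stated. Errors after ± are standard errors. The number of arrays limits precision, and array medians lay between 5.08 and 5.13 with correlations of 0.983 to 0.994. The script was tested on simulated data. The members and the lists were chosen with earlier results of these data known. Genes named in full were the called members of each family, at most 6 per family, the 2 brightest members where none was called, a fixed set of genes known from polyglutamine or neuronal RNA biology, members whose probe sets disagreed, and the 4 largest called genes of the other splicing list; further members are given by range or as examples chosen after their values were seen. Groups share no mouse numbers, so no pairing was made. Alternatives were quantile normalization, median centring, leaving out the dimmest 40% of genes, the mean of all probe sets, leaving out probe sets ending in _s_at or _x_at, other moderation, array weights, a covariate for cortical markers or the Gapdh control, and leaving out each array. Plots were made in matplotlib 3.10.9 under Python 3.11.15.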

Additional observations from a re-analysis of the deposited data

Results flagged for a closer look

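In 2 of 48 groups of 4 mice, over the 24 named splicing factor genes, the lowest value was separated from the others by a gap that, as a share of the whole range, exceeded Dixon's 95% critical value. Chance flags about 1 in 20 groups. Rbfox1 was 11.48 in wild-type mouse 63, with the next wild-type value at 11.73 and the highest at 11.74, a gap of 0.955 of the range. Sf3a1 was 7.77 in the same mouse, with the next value at 7.96 and the highest at 7.995, a gap of 0.862 of the range.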

How the results depend on the processing

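All values below come from limma fits with 1 change at a time; the cause of each change was not tested. The Gapdh covariate was chosen after the data had been seen. Of the 15 called genes, Prpf31, Snrpb and Srsf6 kept the call in all 18 alternatives, and none changed sign; of 270 values, 194 kept the call and 76 lost it. The median difference of the 74 genes stayed between 0.11 and 0.16. With the mean of all probe sets 9 members were called higher and 4 lower, but 7 of the 15 calls held, and Celf1, Hnrnph1, Hnrnpc, Hnrnpr, Sf3a1, Sf3b3, Sf3b4 and Sf3b6 lost theirs. Members called higher, 12 as reported, were 20 with array weights, 4 with the cortical covariate, 6 with the Gapdh covariate, and 7 to 13 when 1 array was left out, with 7 without R6/2 mouse 70 or 78. Members called lower, 3 as reported, were 1 without moderation, 0 with the cortical covariate, 1 with the Gapdh covariate (Celf3, and none of the reported 3), and 1 to 3 when 1 array was left out, with 1 without mouse 48, 54, 65, 70 or 78. Other splicing genes called higher, 28 as reported, were 18 without moderation, 43 with array weights, 14 with the cortical covariate, and 15 to 33 when 1 array was left out. Those called lower, 0 as reported, were 1 with the dimmest 40% left out, 2 with the mean of probe sets, 1 with trend and robust moderation, 3 with array weights, 2 with the Gapdh covariate, and 0 to 2 when 1 array was left out. All genes called, 2781 as reported, were 1399 without moderation, 1269 with the cortical covariate, 1610 with the Gapdh covariate, and 1679 to 2545 when 1 array was left out. Of all genes, 9.09% were called higher as reported, 8.72% with the mean of probe sets, 12.6% with array weights and 4.50% without moderation. The shares called lower were 6.19%, 5.98%, 7.54% and 3.19%. With the cortical covariate 4.28% were higher and 2.69% lower, and with the Gapdh covariate 5.32% and 3.53%. When 1 array was left out, 5.06% to 8.68% were higher and 4.15% to 6.17% lower. Signs reversed in at least 1 alternative in 22 of the 59 members not called. Of the 24 genes named in full these were 3: Hnrnpa2b1 was -0.12 with the cortical covariate and -0.056 to 0.12 when 1 array was left out, Mbnl1 was -0.0030 with the mean of probe sets, and Rbfox2 was -0.0036 with array weights, -0.13 with the cortical covariate, -0.41 with the Gapdh covariate and -0.16 to 0.23 when 1 array was left out. No paired analysis was possible because the groups share no mouse numbers. Signal over background limits Mbnl3 and the dimmest probe sets.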

Other observations

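The brightest probe set of Hnrnpab, an RNA-binding protein of neuronal mRNA transport, was 9.88, 12.00, 11.44 and 12.32 in wild-type mice 42, 48, 54 and 63, an SD of 1.09, and 11.95, 10.80, 11.43 and 11.92 in R6/2 mice. Over the 214 splicing factor probe sets, wild-type mouse 42 was the lowest or highest wild-type array in 125, mouse 63 in 117, mouse 54 in 94 and mouse 48 in 92. Among the R6/2 arrays, mouse 65 was lowest or highest in 142, mouse 64 in 112, mouse 70 in 100 and mouse 78 in 74.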
